A study of Arabidopsis thaliana with 40 samples.

Results

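Shoots of Arabidopsis thaliana, the thale cress, were compared after 6 days on ethanol with shoots collected before any pretreatment. The comparison used 16 of the 40 libraries of the series, 8 per group, chosen by their labels, and covered the 16579 of 27416 genes that had enough counts to be tested. Pretreatment began when plants were 14 days old; the starting libraries come from before it, with no ethanol, and the ethanol libraries from after pots had stood for 6 days with their base in 20 mM ethanol, with no freezing. A group of 8 libraries after 6 days on water in place of ethanol is set beside them. The 16 libraries from frozen plants entered the model only through its count filter, its scaling and its estimate of the spread. All plants grew in pots of granular clay at 22 °C under long days (16 h light, 8 h dark) and a light intensity of 110 to 140 µmol photons. RNA (200 ng per sample) was sequenced with Lasy-Seq, a protocol that tags and pools many samples. The labels state neither the hour of harvest nor the genotype, nor how many plants stand behind a library. Ethanol plants were older than starting plants and had stood in liquid, so age, hour of harvest, watering and ethanol cannot be told apart in this comparison; the water group shares age and watering with the ethanol group, and the test of ethanol against water is the test of whether both 6-day changes differed.

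Plants keep time with a circadian clock. In it, genes expressed in the morning, such as CCA1 and LHY, repress genes expressed toward evening, such as TOC1, GI and ELF4. TOC1 represses CCA1 and LHY in turn. The MYB proteins CCA1 and LHY bind the evening element in the promoters of many evening genes, and several cold-regulated genes carry it too. Light, sugar and the clock also set when leaves build and break down starch, make chlorophyll and take up nitrogen, while ethanol that enters a leaf is oxidised by alcohol dehydrogenase to acetaldehyde and further to acetate, which enters central carbon metabolism. Cold acclimation runs through the CBF transcription factors, which bind the CRT/DRE element and turn on COR genes that protect membranes and proteins.

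The promoter stretches below are shown as examples of motifs in clock, cold and related genes described further on: 7 evening-element sites in genes that were higher after ethanol, 2 CRT/DRE sites in COR genes that were higher, and G-boxes in CCA1 and LHY, which were lower. They come from the RefSeq annotation of TAIR10.1, run 5′ to 3′ along the gene's own strand, and carry the motif in capitals: AAATATCT or its reverse complement AGATATTT for the evening element, ACCGAC or GCCGAC for CRT/DRE, and the palindrome CACGTG for the G-box. The ELF4 stretch opens with a further match, left in lower case. A match is a string of letters in the window from 250 bases before to 50 bases after the annotated start, not a site shown to be bound.
COR27, chr5:17200078-17200109, minus strand: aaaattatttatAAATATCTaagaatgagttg
COR27, chr5:17199930-17199961, minus strand: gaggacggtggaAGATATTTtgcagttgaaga
ELF4, chr2:16735174-16735203, minus strand: aaatatctttAGATATTTctacaataagat
PRR5, chr5:8358714-8358745, minus strand: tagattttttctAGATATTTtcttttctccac
TOC1, chr5:24674800-24674831, plus strand: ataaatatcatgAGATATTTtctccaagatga
LUX, chr3:17182978-17183009, plus strand: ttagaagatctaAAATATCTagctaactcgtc
GRP7, chr2:9266614-9266645, minus strand: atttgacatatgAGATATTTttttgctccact
RD29A, chr5:21240564-21240593, plus strand: caatagacatggACCGACtactaataatag
COR15A, chr2:17712393-17712422, minus strand: attaacttgttgGCCGACatacatttgttt
CCA1, chr2:19245386-19245415, plus strand: tagtgtatcagaCACGTGtcgacaaactgg
LHY, chr1:37934-37963, minus strand: ctacaatatcacCACGTGtcgatctgcgat

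Library totals in both groups ran from 2098593 to 7632149 counts, so that 3 counts, the limit that a count of 0 allows, came to 0.393 to 1.43 CPM (the usual depth-scaled count; TMM-scaled library sizes were used for single genes). Organelle genes took 1.605 to 3.448% of the counts. The label of shoot was checked against root genes: of 7 root markers 1 had enough counts to be tested, PYK10, which fell by 1.36 on the log2 scale, and COBL9, EXPA7 and RHD6 were at 0 in both groups. The 7 summed to 60.3 to 121 CPM at the start and 15.5 to 63.4 CPM after ethanol (marker sums are CPM of the library's own total, without TMM). Nearly all of this was PYK10, with 3952 counts at the start and 1466 after ethanol, while no other root marker passed 16. Of 10 reference genes, 4 were lower (ACT2, UBQ10, GAPC1 and AT5G60390, by 0.32, 0.31, 0.35 and 0.45 on the log2 scale) and none was higher, although UBC21 (0.26, adjusted p = 0.0528) passed as higher in 8 of 16 fits that each left out 1 library; the median log2 change of all tested genes was -0.00288. In whole shoots, fewer cells of a type and less RNA per cell cannot be told apart.

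After 6 days on ethanol, 5302 genes, or 32.0% of those tested, differed from the start at an adjusted p under 0.05 (edgeR's quasi-likelihood test with Benjamini-Hochberg adjustment, which is meant by adjusted p throughout). Of these, 2546 (15.4%) were higher and 2756 (16.6%) lower. Changes of 2-fold or more were found in 806 genes that were higher (4.86%) and 492 that were lower (2.97%), and changes over 4-fold in 196 and 96. Small shifts leaned the other way: under 1.5-fold, 991 genes were higher and 1366 lower. In 927 genes (5.59%) every ethanol library lay above every starting library, and in 1102 (6.65%) every one lay below. Tested against a fold change of 1.5, 752 genes were higher and 499 lower. With the same starting libraries, water for 6 days gave 4067 genes (24.5%), 1991 higher (12.0%) and 2076 lower (12.5%), with 617 (3.72%) and 466 (2.81%) changed 2-fold or more. Ethanol and water differed directly in 1664 genes (10.0%), 670 higher after ethanol (4.04%) and 994 lower (6.00%), of which 102 (0.615%) and 105 (0.633%) by 2-fold or more. Counts of list members below are to be read beside these shares of all tested genes.

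**Figure D1:**
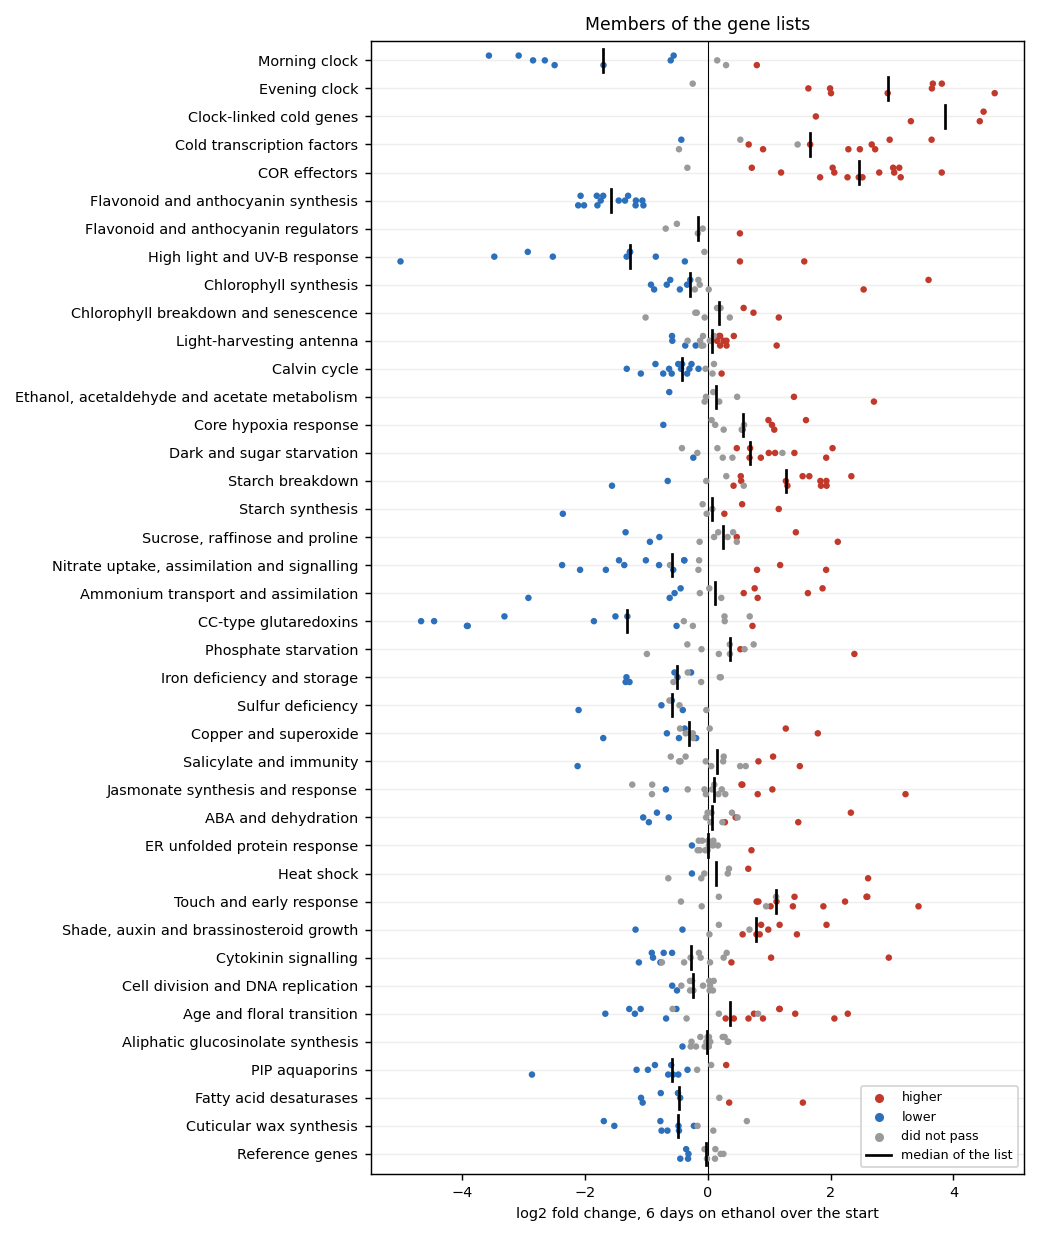
Each point is a tested member of a gene list, placed by its log2 change from the start to 6 days on ethanol (x axis); colours mark members called higher, called lower or not called at an adjusted p under 0.05, and the bar is the list's median. Evening clock and COR genes sit to the right, with medians of 2.93 and 2.46, and morning clock and flavonoid genes to the left, with medians of -1.7 and -1.57.

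The clock genes split by phase. Of 9 tested evening genes 8 rose and none fell, with a median change of 2.93 (log2) against -0.00288 for all genes; of 11 tested morning genes 8 fell and 1 rose, with a median of -1.7. ELF4, a part of the evening complex that represses growth and morning genes at night, held 1.63 to 4.01 CPM at the start (median 2.89) and 65.4 to 94.5 CPM after ethanol (median 79.3). Both groups were far apart, and ELF4 rose by 4.67 ± 0.18 (log2 ± SE, adjusted p = 2.72e-28), or 25.5-fold, more than any other named gene. LUX, the DNA-binding member of the same complex, went from 1.86 to 7.61 CPM (median 3.23) to 23.4 to 35.5 CPM (median 32.1), and rose by 2.93 ± 0.18. PRR5, a repressor of CCA1 and LHY, went from 2.56 to 13.5 CPM (median 4.67) to 51.9 to 76.0 CPM (median 65.8). The ranges did not overlap in either gene, and PRR5 rose by 3.65 ± 0.15. FKF1, a blue-light receptor that promotes flowering, rose by 3.66 ± 0.17, PRR3 by 3.81 ± 0.31, GI by 1.99 ± 0.12, TOC1 by 2.01 ± 0.16 and ELF3 by 1.64 ± 0.20, all without overlap between the groups. ZTL, the light receptor that marks TOC1 for degradation, had a change of -0.24 that did not pass (adjusted p = 0.24).

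Among the morning genes, LHY held 26.5 to 38.7 CPM at the start (median 33.4) and 1.32 to 4.18 CPM after ethanol (median 2.6). It fell by 3.56 ± 0.22 on the log2 scale (adjusted p = 2.05e-19), which is 11.8-fold. CCA1, its close relative, went from 50.3 to 61.9 CPM (median 57.2) to 4.98 to 10.6 CPM (median 7.81) and fell by 2.84 ± 0.17 (adjusted p = 3.56e-20). No ethanol library reached the lowest starting library in either gene. The related MYB genes RVE1 and RVE8 fell by 3.08 ± 0.35 and 2.65 ± 0.28, and the coactivators LNK3 and LNK2 by 2.49 ± 0.12 and 1.7 ± 0.13. RVE4 and LNK1 fell less, by 0.60 ± 0.10 and 0.55 ± 0.12. PRR7, which peaks later in the day than the other members, was the one that rose, from 20.5 to 26.5 CPM (median 23.9) to 33.1 to 48.5 CPM (median 42.2), by 0.80 ± 0.10. RVE7 and AT5G52660 had changes of 0.30 and 0.15 that did not pass. On water the same lists had 8 evening genes higher and 8 morning genes lower, against the same starting libraries. No morning gene passed in the test of ethanol against water, while 3 evening genes, ELF4, PRR5 and GI, were higher after ethanol than after water, by 0.93 ± 0.14 (adjusted p = 1.29e-06), 0.39 ± 0.12 and 0.40. PRR5 no longer passed without water replicate 6 (0.33, adjusted p = 0.0551) or without ethanol replicate 2 (adjusted p = 0.0544). Water libraries held 30.5 to 51.8 CPM of ELF4, below every ethanol library.

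**Figure D2:**
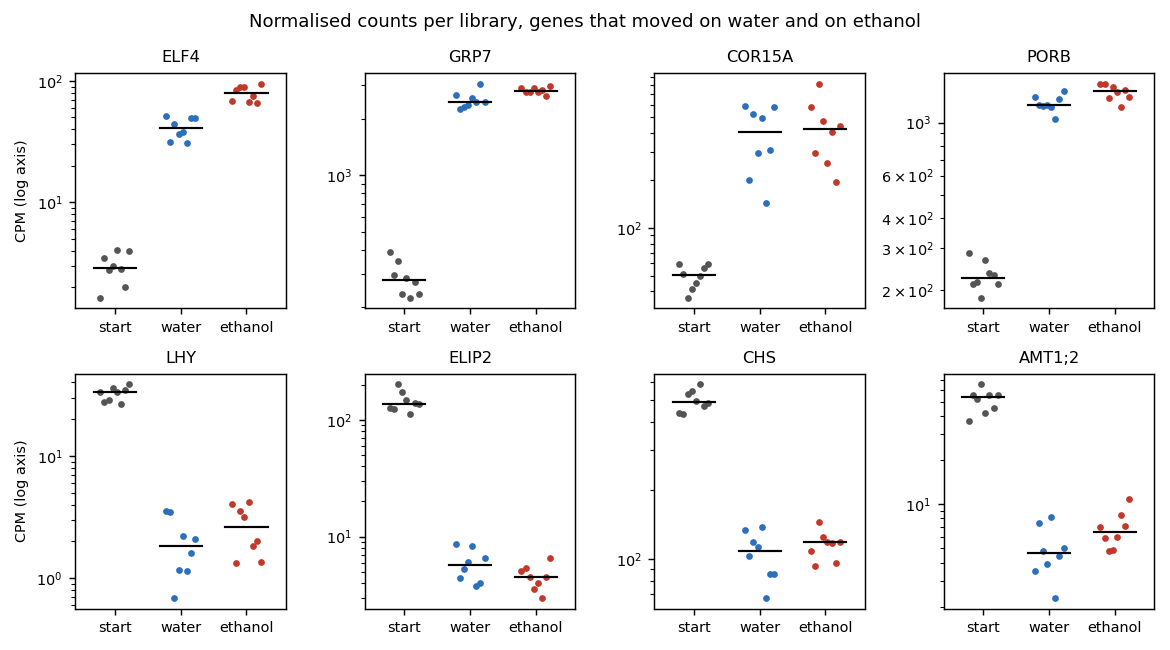
CPM per library on a log axis (each point 1 library, 8 per group; the line is the median) at the start, after 6 days on water and after 6 days on ethanol, for 8 genes. ELF4, GRP7, COR15A and PORB stand higher and LHY, ELIP2, CHS and AMT1;2 lower in all 8 ethanol libraries than in all 8 starting libraries, and the water libraries lie on the same side of the start in each panel.

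Genes that link the clock to cold rose in all 4 cases (median 3.87). GRP7 and GRP8 encode glycine-rich RNA-binding proteins under clock control. GRP7 held 223.3 to 389 CPM at the start (median 278) and 2618 to 2989 CPM after ethanol (median 2798). The groups were far apart. GRP7 rose by 3.31 ± 0.078 (adjusted p = 9.63e-38), and GRP8 by 1.76 ± 0.054. COR27, a cold-induced regulator of the clock, was near the counting floor at the start (0 to 2.04 CPM, median 0.748) and reached 6.59 to 24.3 CPM (median 20.13). It rose by 4.43 ± 0.29, and AT4G33980, listed by RefSeq as an uncharacterized protein, by 4.49 ± 0.25. COR27, AT4G33980 and GRP8 were also higher after ethanol than after water, by 1.47 ± 0.22 (adjusted p = 2.28e-06), 1.55 ± 0.19 (adjusted p = 1.13e-07) and 0.24 ± 0.052 (adjusted p = 0.00103).

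Cold acclimation genes rose in plants that had grown at 22 °C. Of 15 COR genes 14 rose and none fell (median 2.46), 13 of them without overlap between the groups. COR15A, which encodes a chloroplast protein that stabilises membranes during freezing, held 36.5 to 59.6 CPM at the start (median 50.9) and 196 to 809 CPM after ethanol (median 422). All ethanol libraries were higher but widely spread, and the rise was 3.12 ± 0.32 (adjusted p = 7.39e-12). KIN2, a small hydrophilic protein gene, went from 162 to 247 CPM (median 198) to 1140 to 2302 CPM (median 1656) and rose by 3.02 ± 0.19. COR15B rose by 3.81 ± 0.25, COR413IM1, an inner envelope protein gene, by 3.14 ± 0.20, RD29A by 2.46 ± 0.26 and RCI2A, a small membrane protein gene, by 2.28 ± 0.099. RCI2B had a change of -0.33 (adjusted p = 0.22). COR15A and COR15B, and KIN1 and KIN2, are near-identical copies whose counts are uncertain, since the sources used here do not say how multi-mapping reads were counted. COR genes were as widely higher on water, with 14 of 15 called, and COR15A differed between ethanol and water by 0.14 (adjusted p = 0.839). The direct test of ethanol against water called LTI30, a dehydrin, higher (0.84) and RCI2B lower (-0.79).

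Upstream of them, 9 of 13 tested cold transcription factors rose and 1 fell (median 1.67). CBF3 held 1.77 to 4.49 CPM at the start (median 3.07) and 17.2 to 37.6 CPM after ethanol (median 22.3), with no overlap, and rose by 2.96 ± 0.30. CBF1 and CBF2 were near the counting floor at the start, with medians of 0.206 and 0.701 CPM, and had medians of 4.29 and 6.04 CPM after ethanol. They rose by 3.64 ± 0.68 and 2.73 ± 0.63, sizes that are uncertain with so few starting counts. The 3 CBF genes lie side by side and are alike in sequence. MYB73 went from 6.74 to 14.9 CPM (median 13.2) to 46.4 to 64.4 CPM (median 59.8) and rose by 2.29 ± 0.15. RAV1, an AP2 and B3 domain factor, rose by 1.67 ± 0.12, the zinc finger factors ZAT10 and ZAT6 by 2.67 ± 0.46 and 2.48 ± 0.39, and ICE1, an activator of CBF3, fell by 0.43 ± 0.10. Of these genes MYB73, RAV1, ZAT6 and ZAT10 were higher after ethanol than after water, by 0.83, 0.70, 1.66 and 1.39, whereas CBF1, CBF2 and CBF3 had differences of 0.44, 0.05 and 0.55 that did not pass.

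The flavonoid pathway, which makes sunscreen pigments and anthocyanins, fell as a whole: all 14 measured synthesis genes were lower (median -1.57), 12 without overlap. CHS, the chalcone synthase at the entry of the pathway, held 430 to 584 CPM at the start (median 490) and 93.3 to 145 CPM after ethanol (median 118). It fell by 2.11 ± 0.12 on the log2 scale (adjusted p = 8.09e-22). F3H, the next but one enzyme, went from 45.3 to 72.1 CPM (median 51.6) to 7.09 to 18.0 CPM (median 13.5) and fell by 2.07 ± 0.16. DFR and LDOX, late enzymes that lead to anthocyanins, fell by 2.01 ± 0.27 and 1.8 ± 0.22, and PAL1, the phenylpropanoid enzyme that feeds the pathway, by 1.74 ± 0.11. Of 5 tested regulators, 1 passed, MYBL2, a repressor of anthocyanin genes, which rose by 0.52 ± 0.083; the activator MYB75 had a change of -0.08 (adjusted p = 0.87). All 14 synthesis genes were lower on water too, and 3 (LDOX, AT4G14090 and UGT79B1) were higher after ethanol than after water, a count that was 1 without water replicate 6.

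High-light and UV-B response genes followed, with 9 of 12 lower and 2 higher (median -1.264). Against the same start, 8 were lower and 2 higher on water (median -1.613). ELIP2, an early light-induced protein that binds chlorophyll in stressed chloroplasts, held 112 to 201.6 CPM at the start (median 137) and 2.98 to 6.56 CPM after ethanol (median 4.54). This drop of 5.00 ± 0.18 (log2, adjusted p = 1.87e-29), or 32-fold, was the largest fall among the named genes. ELIP1 fell by 3.47 ± 0.16, HYH, a light-signalling bZIP factor, by 2.93 ± 0.16, its partner HY5 by 1.32 ± 0.23, and RUP2, a brake on the UV-B receptor, by 2.52 ± 0.27. The 2 that rose were BBX22, a B-box factor (1.57 ± 0.11), and UVR8, the UV-B receptor itself (0.53 ± 0.094). ELIP1 and SIG5 were higher after ethanol than after water, by 0.55 and 0.62. For ELIP1 that call was lost in 9 of 16 fits that each left out 1 library, for example without water replicate 6 (0.49, adjusted p = 0.0754).

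Chlorophyll genes changed unevenly. PORB, one of 3 light-dependent protochlorophyllide reductases, held 186 to 285 CPM at the start (median 223.3) and 1162 to 1449 CPM after ethanol (median 1351), with no overlap, and rose by 2.54 ± 0.065 (adjusted p = 2.82e-36). PORA, best known from etiolated seedlings, went from 0.156 to 3.27 CPM (median 2.03) to 15.3 to 40.0 CPM (median 22.5) and rose by 3.59 ± 0.26, whereas PORC had a change of 0.02 (adjusted p = 0.87). Of the other 10 synthesis genes 7 fell, among them HEMA1, the first committed enzyme of tetrapyrrole synthesis (by 0.92 ± 0.066), and GUN4, an activator of magnesium chelatase (by 0.87 ± 0.068). NYC1, PPH and PAO, which act in chlorophyll breakdown, rose by 1.16 ± 0.080, 0.75 ± 0.13 and 0.59 ± 0.13, and none of 10 breakdown and senescence genes fell. SAG21, a senescence-associated gene, had a change of -1.01 that just missed (adjusted p = 0.0548) and passed as lower without ethanol replicate 7 (adjusted p = 0.034), with replicate number as a block (adjusted p = 0.00778) and with only the groups compared. ORE1, a senescence NAC factor, had a change from the start of 0.21 that did not pass (adjusted p = 0.53) but was 1.39 higher after ethanol than after water.

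Photosynthesis genes moved by less. In the Calvin cycle 13 of 17 genes fell and 1 rose (median -0.42). FBA1, a plastid aldolase, went from 1719 to 1959 CPM (median 1836) to 808 to 951 CPM (median 858), with no overlap, and fell by 1.09 ± 0.054. RBCS1B, a Rubisco small subunit, fell by 1.32 ± 0.079 and was lower after ethanol than after water by 0.58; RCA, Rubisco activase, fell by 0.72 ± 0.050. CP12-2, a regulator that ties up 2 Calvin cycle enzymes in the dark, was the one that rose (0.23). Of 20 light-harvesting genes 9 rose and 4 fell (median 0.07): LHCB1.4 went from 2289 to 2982 CPM to 5051 to 6827 CPM and rose by 1.12 ± 0.066, and PSBS, needed to quench excess light, fell by 0.58 ± 0.052. The RBCS and LHCB1 genes have near-identical copies, so single members are uncertain.

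Of 8 tested genes of ethanol, acetaldehyde and acetate metabolism 2 rose and 1 fell, with a median log2 change of 0.14. Among all tested genes 15.4% rose and 16.6% fell. ADH1, alcohol dehydrogenase, held 2.33 to 9.39 CPM at the start (median 4.07) and 9.12 to 15.0 CPM after ethanol (median 11.1). The ranges just overlapped, and ADH1 rose by 1.4 ± 0.20 (adjusted p = 5.58e-08). PDC2, pyruvate decarboxylase, which makes acetaldehyde from pyruvate, went from 4.90 to 12.3 CPM (median 7.93) to 48.5 to 70.5 CPM (median 58.2), without overlap, and rose by 2.71 ± 0.13 (adjusted p = 6.97e-24). ACN1, an acetate-activating enzyme, fell by 0.62 ± 0.11, while ACS, acetyl-CoA synthetase (-0.03, adjusted p = 0.895), and the aldehyde dehydrogenase genes ALDH2B4, ALDH2B7 and ALDH2C4 (-0.05, 0.48 and 0.19) did not pass. Against the same start, water gave ADH1 a rise of 1.15 and PDC2 one of 2.25. Ethanol and water differed in PDC2 by 0.45 ± 0.12 (adjusted p = 0.00542) and in ADH1 by 0.25 ± 0.18 (adjusted p = 0.472). In all, 3 of the 8 genes (PDC2, ACN1 and PCK1) were higher after ethanol than after water, or 2 without water replicate 6. Of 11 core hypoxia genes 5 rose and 1 fell, against 4 higher and 0 lower on water from the same start. Among the risers after ethanol were LBD41 (1.6 ± 0.24), SUS1, sucrose synthase (1.05 ± 0.16), and RAP2.12, an oxygen-sensing ethylene response factor (0.57 ± 0.077). HB1, a haemoglobin, fell by 0.72 ± 0.26, a call that was lost in at least 1 fit with 1 library left out.

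Starch breakdown genes rose, 12 of 17 against 2 lower (median 1.27). SEX1, the glucan water dikinase that opens the granule surface, held 19.8 to 28.2 CPM at the start (median 25.1) and 71.0 to 124 CPM after ethanol (median 93.6). PHS2, a cytosolic glucan phosphorylase, went from 43.3 to 61.2 CPM (median 51.4) to a median of 193 CPM, with no ethanol library under 166 CPM. Neither gene overlapped, and both rose by 1.93 (SE 0.10 and 0.086). ISA3, a debranching enzyme, rose by 2.34 ± 0.17, AT5G26570 (phosphoglucan water dikinase) by 1.83 ± 0.13, DPE1 and DPE2, which handle maltose and short glucans, by 1.84 ± 0.14 and 1.27 ± 0.11, and AMY3, an alpha-amylase, by 1.65 ± 0.090. BAM9, a beta-amylase relative, and AT3G23920, beta-amylase 1, fell by 1.56 ± 0.16 and 0.65 ± 0.12. Starch synthesis did not move as a whole: of 7 genes 3 rose and 1 fell (median 0.08). SS4, a starch synthase gene, was 2.23-fold higher than at the start. The 1 that fell was GBSS1, which makes amylose. It went from 60.4 to 113 CPM (median 92.9) to 13.3 to 22.3 CPM (median 19.0), a fall of 2.36 ± 0.14. Ethanol exceeded water in 7 of the 17 breakdown genes, SEX1 (0.42 ± 0.093) and ISA3 (0.58) included, and in GBSS1 (0.84 ± 0.15); without water replicate 6 the 7 became 4.

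Sugar-related genes were mixed against the start, and some separated ethanol from water. In the list of 12 sucrose, raffinose and proline genes 3 rose and 3 fell from the start (median 0.25). Against water, 3 were higher after ethanol and 0 lower. GOLS1, RS5 and P5CS2 were 2.52-, 1.92- and 1.72-fold lower after ethanol than at the start. SWEET12, a sucrose exporter that loads the phloem, held 5.97 to 18.3 CPM at the start (median 10.7), 7.87 to 37.0 CPM on water (median 20.6) and 36.2 to 57.1 CPM on ethanol (median 49.9). Ethanol and start did not overlap and ethanol and water barely did. SWEET12 rose by 2.118 ± 0.18 over the start and stood 1.18 ± 0.17 above water (adjusted p = 8.77e-07). Its relative SWEET11 and SPS4F, a sucrose phosphate synthase, had changes from the start of 0.10 and -0.13 that did not pass, and were 0.58 and 0.72 higher after ethanol than after water. Of 16 genes of the dark and sugar-starvation response 9 rose and 1 fell (median 0.69). Against the same start, 10 rose and 1 fell on water (median 0.535). Ethanol exceeded water in 2 of the 16, or in 1 without water replicate 6. ASN1, the dark-induced asparagine synthetase, went from 0.930 to 3.68 CPM (median 2.74) to 3.10 to 23.4 CPM (median 9.87), with overlap, and rose by 2.03 ± 0.31; DIN1 rose by 1.93 ± 0.34 and TPS11 by 1.41 ± 0.17. KMD4, an F-box protein of the same list, rose by 0.87 ± 0.082 and was higher after ethanol than after water by 0.48.

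Nitrate genes fell, 10 of 16 against 3 higher (median -0.59). NIA2, the major nitrate reductase, held 213.8 to 298 CPM at the start (median 271), 73.6 to 111 CPM on water (median 93.4) and 32.8 to 100 CPM on ethanol (median 48.0). All ethanol libraries were below all starting ones, and the fall was 2.37 ± 0.15 (adjusted p = 4.74e-19). NIA1, the second reductase, fell by 2.08 ± 0.13, NIR1, nitrite reductase, by 1.44 ± 0.13, NRT1.5, a xylem loader of nitrate, by 1.66 ± 0.19, and UPM1, which makes the sirohaem of nitrite reductase, by 1.01 ± 0.15. NIA2, NIR1, UPM1, LBD38 and LBD39, a pair of nitrate-induced repressors, were lower after ethanol than after water, by 0.85 (SE 0.15, adjusted p = 4.31e-05), 0.82, 0.53, 0.63 and 1.06, whereas the difference in NIA1 did not pass (-0.32, adjusted p = 0.15). AT1G25550, a myb-like factor, rose by 1.18 ± 0.16. Ammonium genes were mixed, 5 higher and 4 lower of 12: AMT1;2, a transporter, went from 36.8 to 65.8 CPM (median 53.9) to 4.76 to 10.9 CPM (median 6.46) and fell by 2.92 ± 0.18, while GLN1;1 and GLN1;4, cytosolic glutamine synthetases, rose by 1.87 ± 0.21 and 1.63 ± 0.22. GLN1;4 was 1.23 higher after ethanol than after water.

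CC-type glutaredoxins, small redox proteins found in land plants, several of which respond to nitrate, were lower after ethanol than at the start and than after water. Of 15 tested members 9 fell and 1 rose (median -1.31). AT4G15690, which RefSeq lists as a thioredoxin superfamily protein, held 16.3 to 32.2 CPM at the start (median 27.5), 11.1 to 22.9 CPM on water (median 15.4) and 0.476 to 4.56 CPM on ethanol (median 1.43). No ethanol library came near either other group: the gene fell by 3.91 ± 0.27 from the start (15-fold, adjusted p = 7.6e-18), by 0.73 ± 0.21 on water, and was 3.18 ± 0.27 lower after ethanol than after water (adjusted p = 1e-11). Its neighbours by identifier AT4G15660, AT4G15670, AT4G15680 and AT4G15700 fell by 4.45 ± 0.50, 4.66 ± 0.48, 3.92 ± 0.44 and 3.31 ± 0.41 and were lower than after water by 3.62, 3.25, 1.88 and 2.68. These 5 genes are alike in sequence, so reads may be shared among them and they are not 5 separate observations. AT5G18600, far more abundant, went from a median of 211.7 CPM, with no starting library under 199.7 CPM, to 133 to 175 CPM (median 144) and fell by 0.51 ± 0.066, with a change on water of -0.03. AT2G47880 went the other way, up by 0.73 ± 0.23 and 1.39 above water. Over the list, ethanol was lower than water in 10 of 15 genes and higher in 2; without water replicate 6 the 10 became 7.

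Type-A response regulators, early targets and brakes of cytokinin signalling, were lower after ethanol as well. ARR7 held 38.0 to 52.6 CPM at the start (median 46.9), 25.7 to 52.1 CPM on water (median 45.0) and 16.9 to 27.1 CPM on ethanol (median 21.0). It fell by 1.12 ± 0.13 (adjusted p = 3.69e-10), did not pass on water (-0.20), and differed between both by 0.92 ± 0.13 (adjusted p = 1.02e-06). ARR4, ARR6, ARR8, ARR9 and ARR15 fell by 0.58 to 0.91, and ARR4, ARR5, ARR6 and ARR9 were lower after ethanol than after water by 0.65, 0.87, 1.29 and 0.47. AHP4, a phosphotransfer protein of the same pathway, moved in the opposite direction: 0.543 to 2.86 CPM at the start (median 1.57), 1.37 to 4.95 CPM on water (median 2.06) and 4.82 to 19.0 CPM on ethanol (median 11.8). AHP4 rose by 2.95 ± 0.37 (adjusted p = 2.22e-09) and stood 2.15 ± 0.34 above water (adjusted p = 6.85e-06). In all, 6 of 17 cytokinin genes fell and 3 rose.

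**Figure D3:**
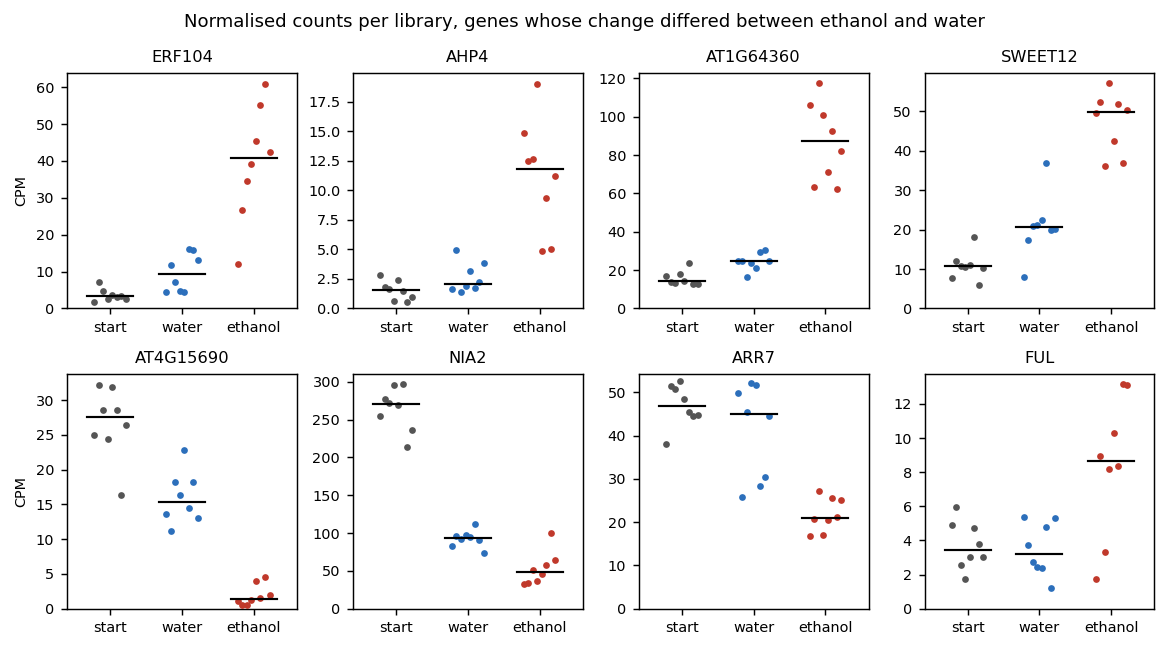
CPM per library (linear axis, each point 1 library, black line the median) at the start, after 6 days on water and after 6 days on ethanol, for 8 genes that differed between ethanol and water. ERF104, AHP4, AT1G64360, SWEET12 and FUL have their highest medians after ethanol, and AT4G15690, NIA2 and ARR7 their lowest.

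Ethylene response factors and other fast-responding genes made up a further group that rose, 11 of 16 with none lower (median 1.12). ERF104, a target of the immune kinase MPK6, held 1.63 to 7.14 CPM at the start (median 3.32), 4.43 to 16.0 CPM on water (median 9.48) and 12.0 to 60.8 CPM on ethanol (median 40.8). The ethanol libraries were widely spread yet all lay above the start, and ERF104 rose by 3.43 ± 0.31 (adjusted p = 1.9e-13), 2.02 ± 0.28 above water (adjusted p = 7e-07). ERF6, ERF105 and ERF5 rose by 2.6 ± 0.49, 2.59 ± 0.44 and 1.88 ± 0.33 and were 2.06, 1.87 and 1.1 above water. WRKY33 and MPK3 rose by 1.39 ± 0.30 and 0.83 ± 0.15, and TCH4, a cell-wall enzyme named for its response to touch, by 1.02 ± 0.23, while TCH2 and TCH3, calmodulin-like genes, had changes of 0.18 and -0.44 that did not pass.

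Of 14 defence genes of the salicylate pathway 3 rose from the start (WRKY54, WRKY70 and CBP60G, by 1.5, 0.83 and 1.06) and 1, PR1, fell. Over all tested genes 15.4% rose and 16.6% fell. CBP60G no longer passed in 4 of 16 fits that each left out 1 library. PR1, an apoplastic marker protein of salicylate responses, held 5.27 to 90.3 CPM at the start (median 24.9) and 2.44 to 34.5 CPM after ethanol (median 4.53). The groups overlapped, and the fall of 2.117 ± 0.85 (adjusted p = 0.0497) no longer passed in 10 of 16 fits that each left out 1 library. On water 8 of the 14 genes were higher, and 5 were lower after ethanol than after water. The 5 became 3 without water replicate 6, the library with 814 CPM of PR1. That library also had the highest mean log2 CPM over the list, 5.933. The water median was 2.875, inside the starting range of 2.346 to 3.018. The 8 were not recounted without that library. PR1, PCC1 (pathogen and circadian controlled 1) and AT5G03350, a legume lectin family protein, were 4.03, 2.58 and 2.88 lower after ethanol than after water, or 2.26, 1.74 and 2.03 lower without that library. In the unfolded protein response of the endoplasmic reticulum 1 of 13 genes rose and 1 fell after ethanol, 10 rose on water, and 10 were lower after ethanol than after water, or 5 without water replicate 6. BIP1 and BIP2, near-identical HSP70 chaperones, had changes of -0.04 and -0.16 from the start. Among jasmonate genes 5 of 17 rose and 1 fell, VSP1, a storage protein, most (3.22 ± 0.30), and among abscisic acid genes 4 of 15 rose and 4 fell. Of 8 heat-shock genes 2 rose (DREB2A by 2.61 ± 0.45) and 1 fell.

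Growth genes of the shade, auxin and brassinosteroid pathways rose in 8 of 13 cases and fell in 2 (median 0.794). Against the same start, 10 rose and 2 fell on water (median 1.042). Between ethanol and water, 0 were higher after ethanol and 4 lower. EXPA8, an expansin that loosens cell walls, rose by 1.45 ± 0.11, IAA29, an auxin-response repressor, by 1.93 ± 0.20, and PIF4, a growth-promoting bHLH factor, by 0.85 ± 0.095. EXPA1 went from 340 to 472 CPM (median 384) to 134 to 228.6 CPM (median 172), with no overlap, and fell by 1.17 ± 0.10. It was lower after ethanol than after water, as were IAA19, SAUR19 and PRE1. Of 13 cell-division genes none rose and 2 fell, TSO2, a ribonucleotide reductase (by 0.50 ± 0.072), and PCNA1, the replication clamp (by 0.58 ± 0.13). The share that fell was near the 16.6% of all tested genes.

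Genes of ageing and the floral transition rose in 10 of 20 cases and fell in 6. SPL3, which promotes the adult phase and flowering, went from 3.95 to 6.28 CPM (median 5.02) to 16.6 to 28.1 CPM (median 19.5), without overlap, and rose by 2.06 ± 0.16. SOC1, a floral integrator, rose by 0.90 ± 0.098, and AT5G62430 (cycling DOF factor 1) and SNZ, repressors of flowering, fell by 1.67 ± 0.16 and 1.28 ± 0.13. TEM1 and TEM2, which repress FT, rose by 1.42 ± 0.16 and 1.17 ± 0.17, and FLC had a change of -0.57 (adjusted p = 0.26). FUL, a MADS gene of the meristem, held 1.72 to 5.99 CPM at the start (median 3.43), 1.21 to 5.39 CPM on water (median 3.23) and 1.74 to 13.2 CPM on ethanol (median 8.66). The ranges overlapped, and FUL rose by 1.17 ± 0.29 (adjusted p = 0.000886) and was 1.25 ± 0.29 above water (adjusted p = 0.002). AP1 rose by 2.28 ± 0.51 and was 1.90 above water. Ethanol exceeded water in 8 of the 20 genes and was lower in none. The flower markers AP3, PI and SEP3 rose by 3.64 ± 0.63, 2.23 ± 0.55 and 3.03 ± 0.64 at very low levels: the 4 markers summed to 0.807 to 3.28 CPM at the start, 0.875 to 5.89 CPM on water and 5.59 to 15.9 CPM on ethanol, with 6, 29 and 87 counts of AP3 over the 8 libraries of each. The part of early flower tissue in the results above was not tested.

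Aquaporin and wax genes were mostly lower. Of 12 PIP aquaporins, water channels of the plasma membrane, 9 fell and 1 rose: PIP2;3 went from 81.7 to 120 CPM (median 88.3) to 8.11 to 17.1 CPM (median 12.3) and fell by 2.86 ± 0.17, PIP2;1 by 0.97 ± 0.075, and PIP2;6 rose by 0.30 ± 0.067. Of 11 wax genes 8 fell, WSD1, a wax ester synthase, by 1.52 ± 0.20. Against the same start, 10 PIP genes were lower and 2 higher on water, and 7 wax genes were lower and 1 higher. Ethanol was lower than water in 3 PIP genes and 1 wax gene, and higher in 0. Among 8 fatty acid desaturases 5 fell (FAD5 by 1.08 ± 0.071) and 2 rose, ADS2, which is linked to chilling tolerance, by 1.55 ± 0.067. Water libraries had 5 desaturases lower and 3 higher than the start. Catalases, which break down hydrogen peroxide, diverged: AT4G35090 (catalase 2) went from 879 to 1107 CPM (median 953) to 241 to 362 CPM (median 308) and fell by 1.7 ± 0.073, while AT1G20620 (catalase 3) went from 515 to 705 CPM (median 572) to 1696 to 2229 CPM (median 2092) and rose by 1.79 ± 0.079. Neither overlapped between the groups. CAT1 rose by 1.27 ± 0.088, and of all 12 copper and superoxide genes, catalases included, 5 fell and 2 rose. Of the same 12 genes, 6 were lower and 2 higher on water. APR2, the sulfate-reducing enzyme, fell by 2.1 ± 0.095, with 4 of 7 sulfur genes lower and none higher. Iron genes were lower in 6 of 11 cases, NAS4, a nicotianamine synthase, by 1.34 ± 0.17; the 6 became 3 without starting replicate 6 or without ethanol replicate 1, 6 or 8. From the same start, 3 sulfur genes and 6 iron genes were lower on water and 0 higher. Of 10 phosphate-starvation genes 2 rose after ethanol, but 0 were called with counts thinned to the shallowest library and 1 with only the groups compared. Of 15 aliphatic glucosinolate genes none rose and 1 fell, although up to 3 passed as higher with 1 library left out (CYP79F1 and MAM1 among them without starting replicate 6 or ethanol replicate 7).

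Of 5 mesophyll markers 3 fell and 1 rose, and their sum was 57000 to 62800 CPM at the start and 49700 to 56600 CPM after ethanol. Epidermis markers fell in 2 of 4 cases (sums 472 to 619 and 396 to 459 CPM), or in 1 without starting replicate 4 or without ethanol replicate 4, 6 or 7. Neither sum overlapped between the groups, but each rested largely on 1 gene. At the start RBCS1A held 1742038 counts, against 299490 for LHCB3, the next mesophyll marker. PDF1 held 15273 counts, against 6583 for AT2G26250, the next epidermis marker. Of 3 phloem markers 1 rose and 1 fell (sums 107 to 138 and 126 to 169 CPM). SLAC1, the anion channel of guard cells, was the 1 of 5 guard cell markers that passed: it held 1.86 to 6.40 CPM at the start (median 3.76) and 6.56 to 11.2 CPM after ethanol (median 7.47), just without overlap, and rose by 1.01 ± 0.22, with a like difference from water (0.99). The other 4, KAT1, OST1, FAMA and MYB60, had changes from -0.45 to 0.54 that did not pass. KAT1, a potassium channel (0.54, adjusted p = 0.0533), passed in 7 of 16 fits that each left out 1 library, and with DESeq2 (adjusted p = 0.0428). The sum of all 5 was 39.5 to 53.8 CPM at the start and 31.9 to 63.8 CPM after ethanol. The part of cell makeup in the results above was not tested.

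Several of the 24 most changed genes carry no name or role in the annotation used. AT2G33830, a dormancy and auxin associated family protein, went from 11.3 to 23.7 CPM (median 17.35) to 256 to 516 CPM (median 386) and rose by 4.56 ± 0.17, and its named relative DYL1 rose by 3.75 ± 0.16. AT1G56300 and AT5G23240, both with a DnaJ domain, rose by 3.87 ± 0.089 and 3.90 ± 0.13; the first had the smallest p of all genes (adjusted p = 4.41e-38), with 7.14 to 11.2 CPM at the start and 114 to 144 CPM after ethanol. Among those that fell, AT3G14395, an uncharacterized protein, went from 21.6 to 41.4 CPM (median 31.7) to 0 to 3.05 CPM (median 1.58), by 4.16 ± 0.29, and AT5G49480, a calcium-binding protein, from 174 to 303 CPM (median 247) to 14.5 to 24.4 CPM (median 19.9), by 3.67 ± 0.11. BBX30, BBX31 and COL2, of the B-box family of light and clock regulators, fell by 3.50 ± 0.29, 3.55 ± 0.37 and 3.51 ± 0.21. AT1G64360, an uncharacterized protein, held 12.8 to 23.7 CPM at the start (median 14.1), 16.2 to 30.3 CPM on water (median 24.9) and 62.3 to 117 CPM on ethanol (median 87.3). Ethanol libraries stood above both other groups, and AT1G64360 rose by 2.48 ± 0.20 and was 1.83 ± 0.19 above water (adjusted p = 3.16e-09). AT4G01380, with a plastocyanin-like domain, and HIS1-3, a linker histone known for its response to drought, rose by 3.21 ± 0.41 and 2.64 ± 0.35 and were 2.62 and 1.93 above water.

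**Figure D4:**
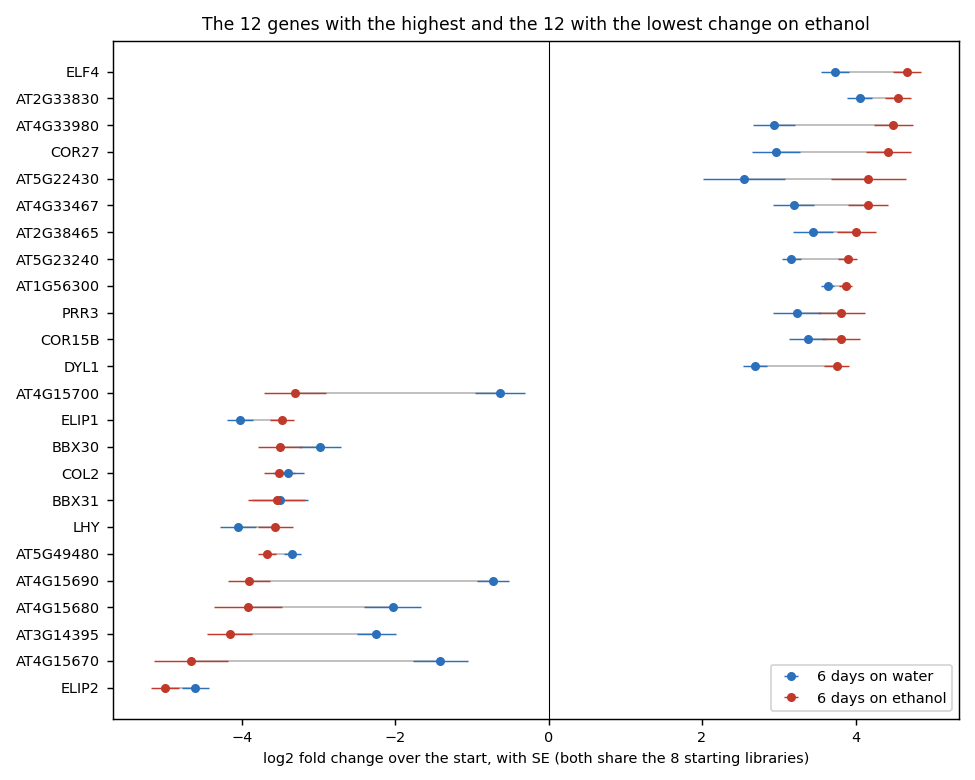
Log2 change from the start after 6 days on water and after 6 days on ethanol (points with SE bars) for the 12 highest and 12 lowest changes on ethanol among called nuclear genes with at least 10 CPM; both changes share the starting libraries. Both values have the same sign in all 24 genes; they lie close in genes such as ELIP2 (-4.61 and -5.00) and LHY (-4.05 and -3.56), and apart for AT4G15690 (-0.73 and -3.91), AT4G15670 (-1.41 and -4.66) and AT4G15700 (-0.63 and -3.31).

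The evening element was present in a larger share of the genes that rose by 2-fold or more than of all tested genes. AAATATCT, on either strand of the windows that gave the stretches shown above, occurred in 6.23% of the 16416 tested genes with a promoter sequence. It occurred in 23.9% of the 803 that rose 2-fold or more and in 33.2% of the 196 that rose over 4-fold. Among genes that fell it occurred in 4.48% of the 491 at 2-fold or more and in 8.42% of the 95 at over 4-fold. It was present in 5 of 9 evening clock genes, all 4 clock-linked cold genes and 5 of 17 starch breakdown genes. The CRT/DRE letters ACCGAC or GCCGAC occurred in 1660 of the 16416 tested genes and in 7 of 15 COR genes. They occurred in 12.6% of genes that rose 2-fold and 17.3% of those that rose 4-fold, and in 7.13% and 8.42% of those that fell. The G-box CACGTG was more frequent on both sides, with 8.94% of tested genes, 10.6% of those that rose and 12.4% of those that fell 2-fold. At 4-fold the shares were 17.3% of those that rose and 15.8% of those that fell. The G-box was present in 8 of 11 morning clock genes and 6 of 14 flavonoid genes. The morning element CCACAC occurred in 8.07% of tested genes, in 81 of the 803 that rose and in 11.6% of those that fell 2-fold. Each motif was counted on its own, so matches of different motifs may overlap. These shares are descriptions, with no test, and a missing match says only that the letters are not in that window.

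**Figure D5:**
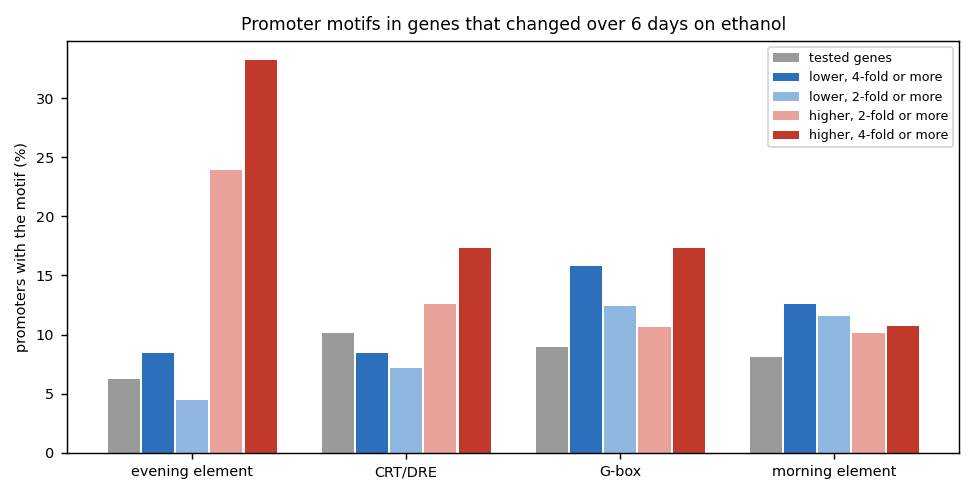
Percent of promoters (bars from 0, y axis) that hold the evening element, G-box, CRT/DRE or morning element, for all tested genes and for genes that rose or fell by 2-fold or 4-fold. The evening element stands out, at 23.9 and 33.2% of the genes that rose against 6.23% of tested genes.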

How the data were processed

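The authors deposited a table of raw read counts per gene for 40 libraries; per the submitters' processing notes the reads went through bcl2fastq, Trimmomatic, HISAT2 (genome build TAIR10), featureCounts and DESeq2. Whether counting used strand or multi-mapping reads is not given in the sources consulted. A second deposited table of DESeq2-normalized values was not used. Groups were taken from the labels, 8 libraries in each of 5 groups. Libraries are not stated to be separate plants, so p-values reflect only the spread among these samples, which may be technical. Counts were fitted with edgeR 4.0.16 (R 4.3.3, limma 3.58.1) in 1 model over all 40 libraries, with TMM scaling, the tool's filter on low counts and its quasi-likelihood test; p-values were adjusted by Benjamini-Hochberg over 16579 genes, with 0.05 as the threshold, and the procedure was tested on simulated data. Standard errors were derived from the log2 change and its F value. Floors cover counting error only. The alternatives were RLE scaling, no filter, DESeq2 1.42.0, only the groups compared, replicate number as a block, thinned counts, organelle genes left out, a test against a fold change of 1.5, a transcript length trend and each library left out; leaving out water libraries, or water replicate 6 with ethanol replicate 7, was chosen after seeing the data. Gene symbols and products came from RefSeq (TAIR10.1), which matched 26719 of 27416 identifiers.

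The comparison and its 46 gene lists (585 members, 521 of them tested) were chosen with earlier results of these data known. Named genes are the 12 highest and 12 lowest log2 changes among called nuclear genes whose higher group averaged 10 CPM or more, the 4 list members of smallest p in every list, a fixed set (clock, CBF, COR, ethanol, flowering, defence and reference genes), the 6 highest and 6 lowest differences between ethanol and water among genes called in both, and genes with counts in 1 group only. Other list members named were chosen after their values were seen.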

Additional observations from a re-analysis of the deposited data

Results flagged for a closer look

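For each named gene and list, the library at either end of its group was compared with the other 7 by Dixon's ratio, against its critical value for 8 libraries. Of 516 such groups 37 (7.17%) had a library that stood apart, where chance gives about 1 in 20. The values below are CPM for genes and mean log2 CPM for lists.

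Ethanol replicate 7, the shallowest library (2098593 counts), gave 8 of the 37. COR27 was at 6.59 there, against 19.4 to 24.3 in the other ethanol libraries, and the clock-linked cold list at 7.08 against 7.57 to 7.76. BIP2 was at 32.9 against 47.2 to 64.8. It was high in COL2 (11.7 against 5.41 to 7.18), MYBL2 (193 against 133 to 151), RBCS2B (5410 against 4440 to 4650), CAT1 (64.4 against 42.9 to 47.8) and CDC20.1 (11.7 against 6.67 to 8.38).

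Among the other ethanol libraries, replicate 1 was low in LBD41 (5.23), PHT1;4 (0), WRKY70 (41.9) and the age and floral transition list (3.38). Replicate 2 was low in LSU2 (10.7) and high in the iron list (3.98), replicate 3 low in AT3G14395 (0), ERF5 (3.81) and SEOR1 (10.7), replicate 4 high in the phosphate starvation list (2.78), replicate 5 low in NYC1 (93.2), replicate 6 high in AT2G31790 (70.9), and replicate 8 low in FKF1 (23.0) and EXPA8 (95.1).

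In the starting group, replicate 7 was low in AT4G15690 (16.3 against 24.3 to 32.2), AT4G15700 (3.44 against 9.41 to 15.3) and IAA29 (0.905 against 3.58 to 4.82). Replicate 1 was high in AT2G38465 (5.72) and SS1 (60.0) and low in the nitrate list (4.52). Replicate 2 was low in SS4 (9.90) and AT4G01380 (0) and high in ACT8 (106). Replicate 4 was low in PORA (0.156) and the chlorophyll synthesis list (7.36), replicate 5 low in BBX31 (7.87) and high in PCNA1 (38.5), replicate 6 low in the shade, auxin and brassinosteroid list (3.56), and replicate 8 low in FAD8 (27.8).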

How the results depend on the processing

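The count of 5302 genes ran from 4353 (thinned counts, 4118 of them shared) to 5437 (DESeq2) under the other settings and from 4962 to 5222 with 1 library left out (2498 to 2616 higher, 2461 to 2606 lower). The exception was the test against a fold change of 1.5, which called 1251 genes, 752 higher and 499 lower, and moved the higher share from 48.0 to 60.1%; its own construction leaves out small changes. With 1 library left out, ethanol against water gave 1407 to 1703 genes and water against start 3749 to 3993. Same-numbered libraries did not deviate together (r from -0.0229 to 0.0142 over 8 pairs, own number best in 0 of 8), and replicate number as a block gave 5303. No named gene reversed. Of 183 that were called, 167 were called under every setting other than the test against 1.5-fold, 6 more (AP3, PI, SEP3, DREB2A, HAI2 and MGD3) wherever they passed the count filter, and 10 were lost in at least 1 (APR1, AT1G47395, AT2G26250, CBP60G, FER1, LSU2, PCC1, PR1, SPX1 and SS1); that test lost 60. Of 75 calls of named genes between ethanol and water, 19 were lost in at least 1 setting. Of the lists, thinning moved iron from 6 lower to 3, sulfur from 4 to 2 and epidermis markers from 2 to 1. It also moved phosphate starvation from 2 higher to 0, heat shock from 2 to 1 and the Calvin cycle from 1 to 2. The 3 flower markers failed the count filter with thinned counts and with only the compared groups. The evening element's 23.9% became 20.6% with no filter and 27.4% with the 1.5-fold test. At 3 counts, the depth limits genes under 0.393 to 1.43 CPM.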

Other observations

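A pair of gene families was looked at after its values had been seen. Of 289 tested nuclear genes whose RefSeq product names a ribosomal protein, without those whose product names an organelle, 79.2% were lower after 6 days on ethanol than at the start and 10 were higher, with a median log2 change of -0.544 (range -1.45 to 2.35). Against the same start, 144 were lower and 7 higher on water (median -0.19), and 181 were lower after ethanol than after water while 2 were higher (median -0.335), or 190 lower without water replicate 6. With 1 library left out, 77.9 to 79.2% were lower than at the start, and 37 passed the test against a fold change of 1.5. Of 26 B-box and CONSTANS-like genes, transcription regulators of light and clock responses, 13 were lower after ethanol and 9 higher, with changes from -3.55 to 2.81.

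Of 78 genes of the chloroplast genome, 1 was higher and 3 lower after ethanol than at the start (0 to 4 lower with 1 library left out), 31 were lower on water, and 23 were higher after ethanol than after water, with the count also 23 without water replicate 6. AT3G28310, which RefSeq lists as a hypothetical protein, had 0 counts in the 8 starting libraries and 60 in the ethanol libraries (2 to 18 each), which is at least 21.1-fold higher against a floor of 3 counts over the group; the water libraries held 53. Across 16416 genes, which are not independent replicates, the log2 change on ethanol had a Spearman correlation of 0.0527 with transcript length. Calls did vary with length. Under 1000 bases 24.9% of genes were lower and 17.1% higher, and from 6000 bases 3.28% were lower and 10.7% higher. The 289 ribosomal protein genes had a median transcript of 1008 bases, against 1740 for tested genes. With the transcript length trend removed, 230 of them were lower.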
